A study of Mus musculus with 6 samples.

Results

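WNT proteins are secreted, lipid-modified ligands that signal between neighbouring cells. The genes described here are the mouse Wnt ligands, their Frizzled receptors and the coreceptors Lrp5 and Lrp6, the secreted antagonists of the Sfrp and Dkk families with Wif1 and Notum, and the nuclear factor Lef1 with the feedback targets Axin2, Nkd1 and Nkd2. They were taken by symbol, and 45 of the 20239 named genes on the array belonged to the group: 19 ligands, 12 receptors, 10 secreted antagonists and 4 genes of the last kind. Tcf7 was not analysed here.

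Expression was measured in whole sciatic nerves of 25-day-old mice, with 1 Affymetrix whole-transcript array per mouse. The 3 mutant mice had the genotype DhhCre::Sip1 flox/flox, in which a Cre recombinase under Dhh control, active in the Schwann cell lineage, recombines the floxed alleles of Sip1, the transcription factor gene now called Zeb2. The 3 control mice were Sip1 flox/flox without Cre, so the floxed alleles were common to both groups and no group carried Cre alone. The deletion was aimed at Schwann cells, while the RNA came from all cells of the nerve, and a change in the number of cells of a type and a change in RNA per cell cannot be told apart in such samples.

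In the canonical pathway a WNT ligand binds a Frizzled receptor together with LRP5 or LRP6, beta-catenin escapes destruction, enters the nucleus and acts with TCF and LEF factors on target genes. Among these targets is Axin2, which encodes a scaffold of the destruction complex and so feeds back on the pathway. SFRP proteins and WIF1 bind WNT ligands outside the cell, DKK proteins bind the LRP coreceptors, and NOTUM removes the lipid that ligands need. In peripheral nerve, WNT signals are known to act on Schwann cell development and on myelin gene expression.

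Values are log2 values as the authors deposited them, and a difference is the mean of the mutant nerves minus the mean of the control nerves. Each gene was tested with limma over all 20239 genes, and a gene passed at a Benjamini-Hochberg adjusted p under 0.05. Zeb2 stood at 10.96, 10.66 and 11.01 in mutant nerves 1 to 3, against 11.67, 11.57 and 12.02 in control nerves 1 to 3 (difference −0.88, SE 0.15, adjusted p = 0.0137). The groups did not overlap, and without mutant 1 the adjusted p was 0.0522. The Schwann cell marker Pmp22 lay between 13.67 and 14.52 in all 6 nerves, where 14.52 was the highest value of the table, so the labelled tissue had its defining transcript. The 12 skeletal muscle markers set mutant 2 and control 2 apart, with mean log2 values of 12.85 and 13.09, against 7.76 and 10.38 in mutants 1 and 3 and 7.94 and 10.64 in controls 1 and 3. By Xist and Y-linked genes, mutants 1 and 2 and control 3 were male, and mutant 3 and controls 1 and 2 female. Sex was thus unbalanced between the groups, and same-numbered nerves differed in sex. The main fit did not adjust for sex, and a fit with sex as a covariate is given at the end.

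WNT genes that passed were mostly higher in the mutant nerves. Of the 45 genes, 11 rose (24.4%) and 1 fell (2.22%), while of all genes 5.74% were higher and 3.89% lower, 9.62% in all. The genes that rose were the ligands Wnt2b, Wnt6 and Wnt10a, the receptors Fzd1, Fzd2 and Fzd6, the antagonists Sfrp1, Sfrp4 and Sfrp5, and the feedback genes Axin2 and Nkd2. The gene that fell was Nkd1. Without mutant 1, mutant 2 or the muscle-rich pair of mutant 2 and control 2, Nkd1 did not pass, and without control 1 Fzd3 fell too. The other 33 did not pass, and the median difference over the 45 genes was 0.08, beside −0.02 over all genes. In 20 of the 45 (44.4%) the mutant and control values did not overlap, 17 higher and 3 lower, against 28.1% of all genes.

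**Figure D1:**
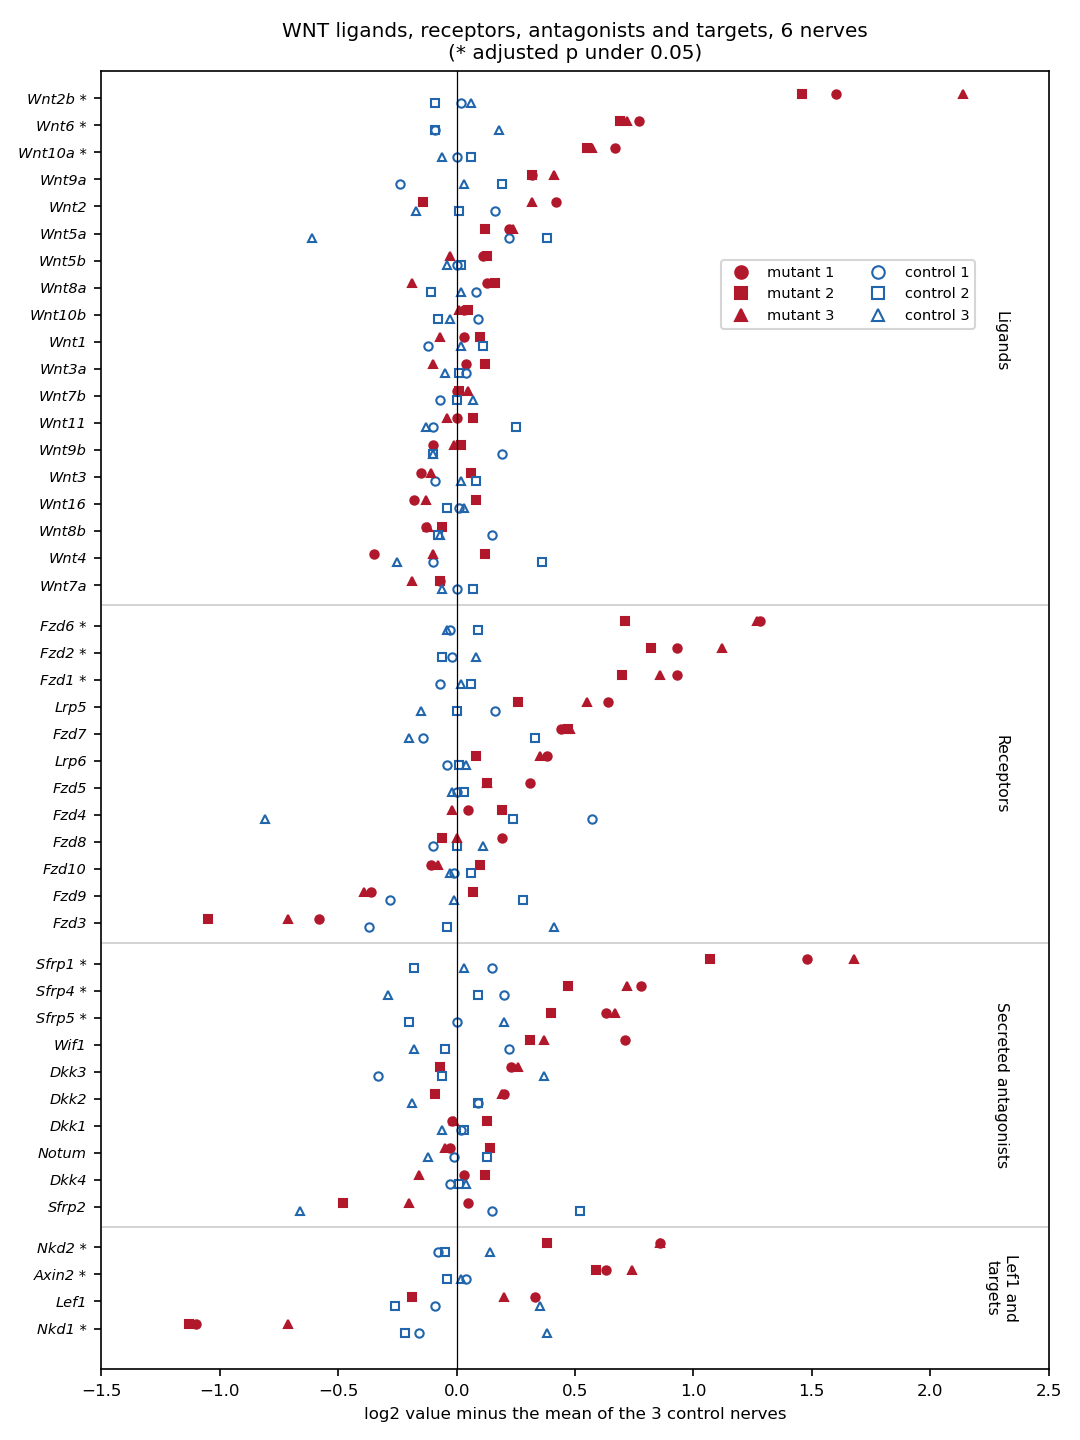
Log2 value of each of the 45 genes in each nerve, minus the mean of the 3 control nerves (x axis), grouped by role. Filled symbols are mutant nerves and open symbols control nerves, shapes give the replicate number, and asterisks mark the 12 genes that passed. Most ligands lie around 0, while Wnt2b reaches the largest difference, 1.74, and Nkd1 the lowest, −0.98.

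The ligands divided into 3 genes with clear rises and 16 that did not pass. Wnt2b, a ligand of the canonical pathway, had 10.35, 10.21 and 10.89 in the mutant nerves, against 8.77, 8.66 and 8.81 in the control nerves. Every mutant value exceeded every control value by over 1 log2 unit. The difference was 1.74 (SE 0.18, 95% confidence interval 1.32 to 2.16, 3.34-fold, adjusted p = 0.00201), the largest of the 45 genes. Its promoter, a window of 300 bases around the transcription start, is shown because it belongs to the ligand that changed most. It lies at chr3:104961660-104961959 on the minus strand (RefSeq, GRCm38.p6). Capitals in this and the other promoters mark the word CACCT, the core to which ZEB proteins bind, or its reverse complement AGGTG.
Wnt2b: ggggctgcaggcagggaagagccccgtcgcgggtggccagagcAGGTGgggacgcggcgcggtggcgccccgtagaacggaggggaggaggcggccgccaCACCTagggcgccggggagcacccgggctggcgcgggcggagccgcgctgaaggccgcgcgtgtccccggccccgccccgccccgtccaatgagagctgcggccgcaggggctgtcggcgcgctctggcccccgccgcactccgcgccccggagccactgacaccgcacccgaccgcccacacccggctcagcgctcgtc

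Wnt6 and Wnt10a encode ligands that lie next to each other on chromosome 1. Wnt6 stood at 9.0, 8.92 and 8.95 in the mutant nerves and at 8.14, 8.14 and 8.41 in the control nerves. Its mutant values kept within a range of 0.08, well above the control nerves (difference 0.72, SE 0.10, 1.65-fold, adjusted p = 0.00636). Wnt10a stood at 9.15, 9.03 and 9.05 in the mutant nerves and at 8.48, 8.54 and 8.42 in the control nerves. Again no values overlapped, and the difference was 0.60 (SE 0.08, 1.52-fold, adjusted p = 0.00543). In the RefSeq annotation of GRCm38.p6 the Wnt genes form 4 neighbouring pairs with no other protein-coding gene starting between them. Wnt6 with Wnt10a was the pair in which both genes rose. In the other 3 pairs, Wnt3a with Wnt9a, Wnt9b with Wnt3 and Wnt10b with Wnt1, neither gene passed.

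The 16 ligands that did not pass had differences between −0.11 (Wnt4 and Wnt7a) and 0.35 (Wnt9a), with adjusted p between 0.14 and 0.986. Wnt9a, the neighbour of Wnt3a, had the smallest p among them. Its values were 8.59, 8.59 and 8.68 in the mutant nerves, against 8.03, 8.46 and 8.30 in the control nerves. The groups did not overlap, yet the difference missed the threshold (interval 0.06 to 0.64, adjusted p = 0.14). Wnt5a, the ligand best known for signalling without beta-catenin, varied more among the control nerves than between the groups. It had 8.26, 8.16 and 8.28 in the mutant nerves and 8.26, 8.42 and 7.43 in the control nerves, a difference of 0.20 with an interval of −0.38 to 0.78. The remaining ligands were Wnt1, Wnt2, Wnt3, Wnt3a, Wnt4, Wnt5b, Wnt7a, Wnt7b, Wnt8a, Wnt8b, Wnt9b, Wnt10b, Wnt11 and Wnt16, and their differences did not exceed 0.20 in size.

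The level of each gene on the array was set beside these counts. Of the 45 genes, 18 lay below the median of the array on all 6 arrays. In limma 0 of these 18 passed, beside 2.12% of all genes that low, and whether these shares differ was not tested. At an unadjusted p under 0.05, 1 of the 18 differed. They included 11 ligands. No detection calls were used, so a value in that range may be background. Of the 19 genes that lay at or above the median on all arrays, 9 rose and 1 fell (52.6%), beside 14.1% of all genes in that range. The other 8 genes crossed the median between arrays, and of these Axin2 and Nkd2 rose (25%), beside 22.5% of all genes in that class.

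Among the receptors, 3 Frizzleds rose, and 9 of the 12 genes did not pass. Fzd6, which is known for its part in planar cell polarity, had 9.93, 9.36 and 9.92 in the mutant nerves, against 8.62, 8.74 and 8.61 in the control nerves. Mutant 2 was the lowest of the mutant nerves and still exceeded every control (difference 1.08, SE 0.16, 2.11-fold, adjusted p = 0.00875). Fzd2 had 11.33, 11.22 and 11.52 in the mutant nerves, against 10.38, 10.34 and 10.48 in the control nerves. The groups were separate, and the difference was 0.96 (SE 0.10, 1.94-fold, adjusted p = 0.00239). Fzd1, closely related to Fzd2 and Fzd7, had 10.62, 10.39 and 10.55 in the mutant nerves, against 9.62, 9.75 and 9.71 in the control nerves. It too was separate (difference 0.83, SE 0.09, 1.77-fold, adjusted p = 0.00289). The promoter of Fzd1, shown as that of a receptor that rose, lies at chr5:4758167-4758466 on the minus strand.
Fzd1: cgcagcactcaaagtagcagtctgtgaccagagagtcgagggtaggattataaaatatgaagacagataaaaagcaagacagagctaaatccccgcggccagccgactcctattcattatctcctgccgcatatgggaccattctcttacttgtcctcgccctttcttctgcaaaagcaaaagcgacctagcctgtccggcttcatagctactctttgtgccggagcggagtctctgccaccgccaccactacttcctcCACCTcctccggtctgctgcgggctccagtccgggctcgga

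Fzd3, a receptor with known roles in axon guidance and planar polarity, ran the other way. Its values were 9.63, 9.16 and 9.50 in the mutant nerves, against 9.84, 10.17 and 10.62 in the control nerves. All mutant values were below all control values, but the difference of −0.78 (SE 0.21, interval −1.29 to −0.27) did not pass (adjusted p = 0.0713). Without control 1 it was −0.97 and passed (adjusted p = 0.0382), and with the adipocyte score as a covariate it was −0.88 (adjusted p = 0.00569). It passed in 4 of the 19 alternative analyses. Without control 3 it was −0.58 (adjusted p = 0.119), and without mutant 2 and control 2 it was −0.67 (adjusted p = 0.218). A direct comparison of Fzd3 with the Frizzleds that rose was not tested.

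Fzd7 and the coreceptors were on the higher side without passing. Fzd7 had 9.66, 9.69 and 9.70 in the mutant nerves and 9.08, 9.55 and 9.02 in the control nerves (difference 0.47, adjusted p = 0.109). The mutant values were nearly equal and control 2 came close to them, and without control 2 the difference was 0.64 (adjusted p = 0.016). Fzd7 passed in 2 of the 19 alternative analyses, and its highest adjusted p among the 19 was 0.303. Lrp5 had 10.45, 10.07 and 10.36 in the mutant nerves, against 9.97, 9.81 and 9.66 in the control nerves (difference 0.48, adjusted p = 0.072). Its groups did not overlap, and without mutant 2 the difference was 0.59 (adjusted p = 0.0353). Lrp6 differed by 0.27 (interval 0.02 to 0.51, adjusted p = 0.184). With array weights Lrp5 (adjusted p = 0.00926) and Lrp6 (0.0311) passed. Of the 19 alternative analyses Lrp5 passed in 2 and Lrp6 in 1, and their highest adjusted p were 0.258 and 0.512. Fzd5, Fzd8, Fzd9 and Fzd10 differed by 0.19, 0.04, −0.23 and −0.03.

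Fzd4, the receptor for the ligand norrin as well as for WNTs, was the most variable of the 45 genes among control nerves. It had 10.94, 11.08 and 10.87 in the mutant nerves, against 11.46, 11.13 and 10.08 in the control nerves. The mutant nerves lay inside the control range of 1.38 (difference 0.08, interval −0.70 to 0.86, adjusted p = 0.921). The mean log2 value of 9 adipocyte markers was 11.01, 11.30 and 10.84 in the mutant nerves and 12.30, 11.48 and 10.14 in the control nerves, the same order of the control nerves as for Fzd4. With that score as a covariate the Fzd4 difference was 0.24 (adjusted p = 0.168).

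Of the secreted antagonists, the 3 genes that passed were all of the Sfrp family, whose proteins carry a Frizzled-like domain. Sfrp1 had 11.06, 10.65 and 11.26 in the mutant nerves, against 9.73, 9.40 and 9.61 in the control nerves. The groups were nearly 1 log2 unit apart at their closest, and the difference was 1.41 (SE 0.17, interval 1.01 to 1.81, 2.66-fold, adjusted p = 0.0037). Sfrp4 had 12.24, 11.93 and 12.18 in the mutant nerves, against 11.66, 11.55 and 11.17 in the control nerves (difference 0.65, SE 0.15, 1.57-fold, adjusted p = 0.0415). Sfrp5 had 12.16, 11.93 and 12.20 in the mutant nerves, against 11.53, 11.33 and 11.73 in the control nerves (difference 0.56, SE 0.13, 1.48-fold, adjusted p = 0.0417). Both were separate between the groups by small gaps. The promoter of Sfrp5, shown as that of an antagonist that rose, lies at chr19:42202203-42202502 on the minus strand.
Sfrp5: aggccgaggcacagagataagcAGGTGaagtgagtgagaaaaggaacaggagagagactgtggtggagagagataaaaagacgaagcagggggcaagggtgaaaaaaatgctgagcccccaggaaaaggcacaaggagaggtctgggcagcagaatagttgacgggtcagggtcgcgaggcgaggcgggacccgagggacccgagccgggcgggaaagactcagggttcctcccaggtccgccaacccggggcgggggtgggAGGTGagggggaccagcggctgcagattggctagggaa

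The rises of Sfrp4 and Sfrp5 depended on which nerves were included. For Sfrp4 the adjusted p was 0.165 when mutant 1 was left out, 0.159 for mutant 3, 0.0845 for control 2 and 0.0676 for control 3. For Sfrp5 it was 0.166 when mutant 1 was left out, 0.168 for mutant 3, 0.0944 for control 1 and 0.106 for control 2. Their differences stayed positive in all 6 fits that left out 1 nerve, at 0.51 to 0.75 for Sfrp4 and 0.46 to 0.66 for Sfrp5. Sfrp1 passed in all 6 such fits.

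Sfrp2 did not follow its relatives. It had 10.76, 10.23 and 10.51 in the mutant nerves, against 10.86, 11.23 and 10.05 in the control nerves, so the groups overlapped (difference −0.22, interval −0.92 to 0.49, adjusted p = 0.733). In the 6 fits that left out 1 nerve the difference ran from −0.55 to 0.04, and without mutant 2 and control 2 it was 0.18. Wif1, which binds WNT ligands directly, had 7.76, 7.36 and 7.42 in the mutant nerves, against 7.27, 7.0 and 6.87 in the control nerves. These groups were separate, and the difference of 0.47 missed the threshold (adjusted p = 0.113). It passed in 2 of the 18 alternative analyses that tested it, the fit blocked by replicate number (adjusted p = 0.035) and that with array weights (0.64, adjusted p = 0.027). The LRP-binding antagonists Dkk1, Dkk2 and Dkk4 differed by 0.04, 0.10 and −0.01, their relative Dkk3 by 0.15 and the deacylase gene Notum by 0.03, with adjusted p between 0.695 and 0.982.

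**Figure D2:**
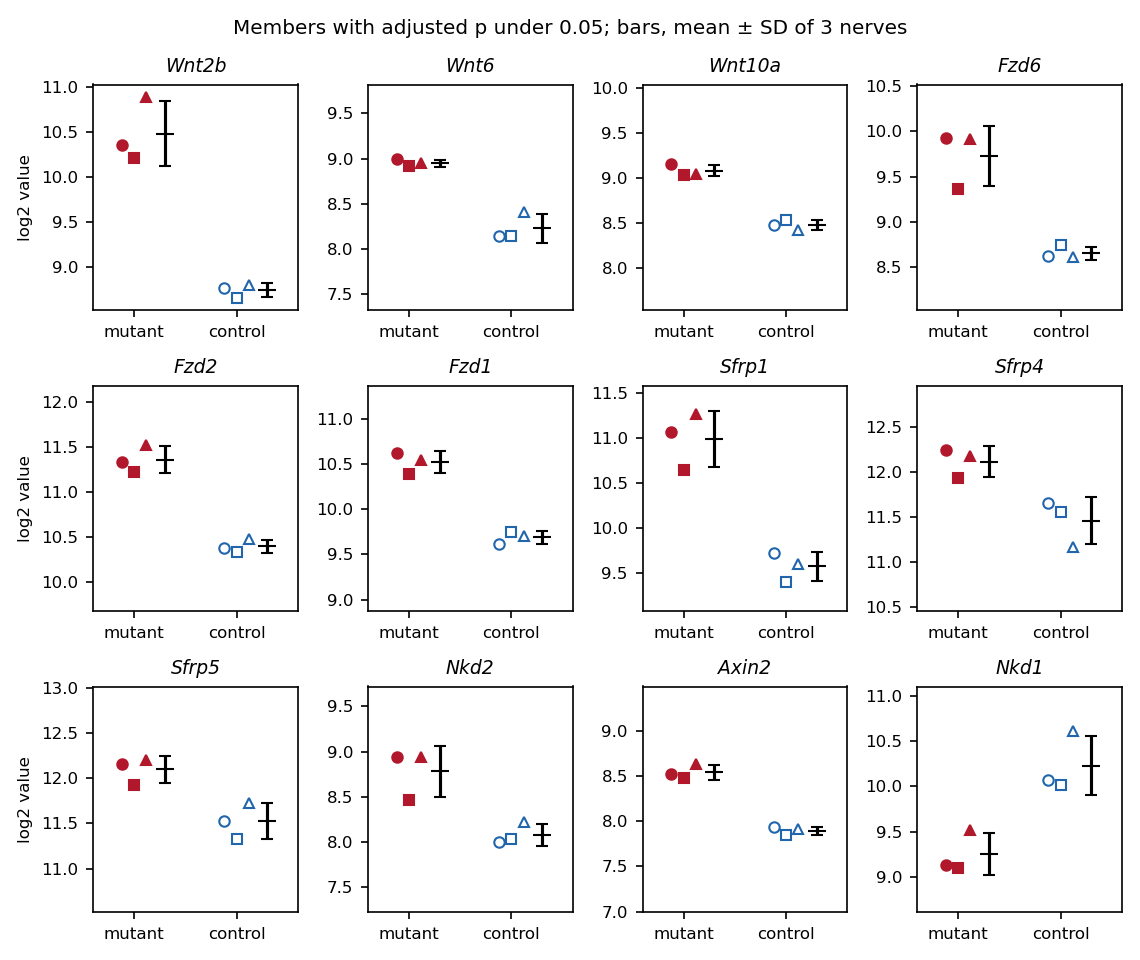
Log2 values (y axis, the same span of 2.5 in each panel) of the 12 genes that passed, with 1 symbol per nerve and the mean ± SD of each group of 3 beside it. The mutant nerves, at the left of each panel, lie above the control nerves in 11 genes and below them in Nkd1.

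Axin2 rose and the Nkd genes moved in opposite directions. Axin2 had 8.52, 8.48 and 8.63 in the mutant nerves, against 7.93, 7.85 and 7.91 in the control nerves. The spread within each group was small beside the gap, and the difference was 0.65 (SE 0.08, interval 0.45 to 0.84, 1.57-fold, adjusted p = 0.00432). Axin2 is widely used as a readout of beta-catenin signalling, and its promoter, at chr11:108920099-108920398 on the plus strand, is shown for that reason. The window held no CACCT word, so it carries no capitals.
Axin2: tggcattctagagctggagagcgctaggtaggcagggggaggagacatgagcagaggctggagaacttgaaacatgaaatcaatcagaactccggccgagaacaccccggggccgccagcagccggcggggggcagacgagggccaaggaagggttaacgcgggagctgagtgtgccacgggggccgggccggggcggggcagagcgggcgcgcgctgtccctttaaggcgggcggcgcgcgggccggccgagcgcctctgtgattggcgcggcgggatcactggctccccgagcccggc

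The proteins of Nkd1 and Nkd2 bind Dishevelled and restrain WNT signalling. Nkd2 had 8.94, 8.46 and 8.94 in the mutant nerves, against 8.0, 8.03 and 8.22 in the control nerves (difference 0.69, SE 0.15, 1.62-fold, adjusted p = 0.0331). All mutant nerves were higher, mutant 2 by the smallest margin. Nkd1 had 9.13, 9.10 and 9.52 in the mutant nerves, against 10.07, 10.01 and 10.61 in the control nerves (difference −0.98, SE 0.19, interval −1.43 to −0.53, 1.98-fold lower, adjusted p = 0.0217). All mutant nerves were lower, and replicate 3 was the highest nerve of each group. The promoter of Nkd1, the gene that fell, lies at chr8:88527383-88527682 on the plus strand.
Nkd1: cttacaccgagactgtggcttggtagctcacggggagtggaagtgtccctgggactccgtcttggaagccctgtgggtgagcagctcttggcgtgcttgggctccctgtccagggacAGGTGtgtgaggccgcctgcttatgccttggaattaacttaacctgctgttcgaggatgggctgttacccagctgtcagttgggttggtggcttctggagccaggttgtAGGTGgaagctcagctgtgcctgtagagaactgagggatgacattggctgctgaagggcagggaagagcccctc

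Neither Nkd call held in every fit that left out 1 nerve. For Nkd2 the adjusted p was 0.135 when mutant 1 was left out, 0.136 for mutant 3, 0.0896 for control 1, 0.0983 for control 2 and 0.0513 for control 3. For Nkd1 it was 0.0971 when mutant 1 was left out, 0.0614 for mutant 2 and 0.0771 for mutant 2 and control 2 together. The difference ranged from 0.61 to 0.85 for Nkd2 and from −1.12 to −0.80 for Nkd1. Lef1, a nuclear partner of beta-catenin that T cells also express, had 7.75, 7.23 and 7.62 in the mutant nerves and 7.33, 7.16 and 7.77 in the control nerves. The groups overlapped (difference 0.11, adjusted p = 0.79), and of the 9 T cell markers 0 passed in limma, with 1 at an unadjusted p under 0.05. These markers lay at 5.70 to 7.81, below the median of every array. Values there may be background, so T cell content cannot be judged from them.

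The calls of 8 genes, Wnt2b, Wnt6, Wnt10a, Fzd1, Fzd2, Fzd6, Sfrp1 and Axin2, were kept in all 19 alternative analyses. In the 6 fits without 1 nerve their highest adjusted p ran from 0.0117 (Wnt2b) to 0.044 (Fzd6). Of all genes, 1948 passed with all nerves, 2021 without mutant 2 and 896 to 1689 in the other 5 of these fits.

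**Figure D3:**
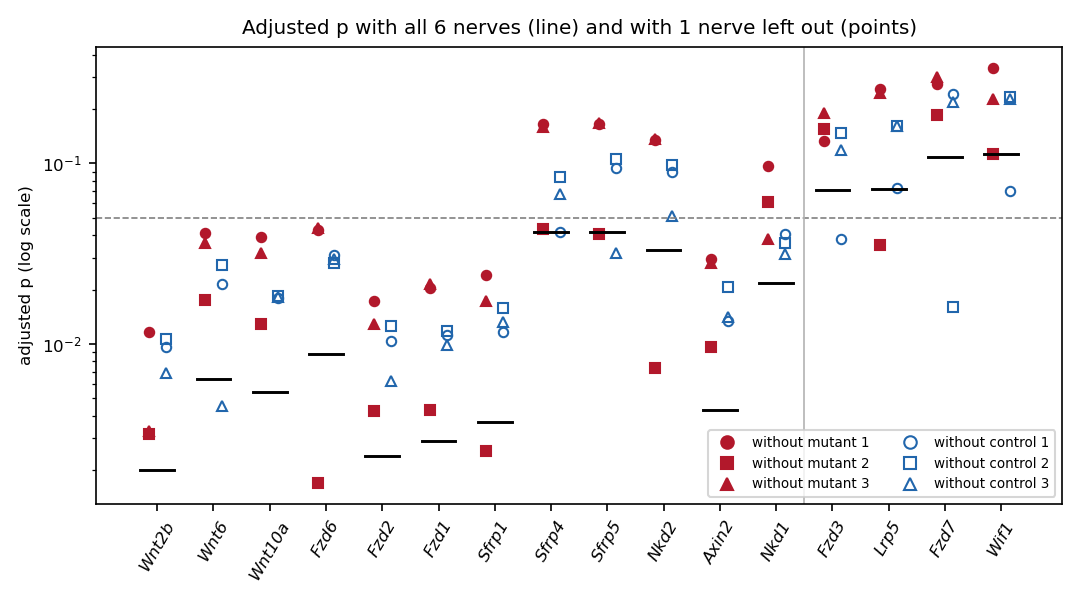
Adjusted p (log scale) of the 12 genes that passed, left of the grey line, and of Fzd3, Lrp5, Fzd7 and Wif1, which did not. Black bars give the value with all 6 nerves, symbols the value without 1 nerve, and the dashed line 0.05. Sfrp4, Sfrp5, Nkd2 and Nkd1 cross the line, while the other 8 stay under it.

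All 11 genes that rose had their lowest mutant value in mutant 2, the muscle-rich mutant nerve. The same held for 83.2% of all genes that rose and for 40.6% of all genes tested. Without mutant 2 and control 2, 9 of the 12 calls were kept, and those of Sfrp4 (adjusted p = 0.0807), Sfrp5 (0.0662) and Nkd1 (0.0771) were not. With the muscle score as a covariate all 12 calls were kept.

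Markers of other nerve cells moved with the groups. Of 7 perineurial markers, 5 rose, and their summed level, in linear units, was 23800 to 27000 in the mutant nerves and 11900 to 16100 in the control nerves. Of 8 fibroblast markers, Lum (0.99) and Pdgfra (0.51) rose, and the sum was 47600 to 54600 in the mutant nerves and 39800 to 44800 in the control nerves. Of 4 Schwann cell markers, Mbp, Pmp22 and S100b fell, and the sum was 17100 to 21200 in the mutant nerves and 31700 to 37000 in the control nerves. The groups did not overlap in any of these 3 sums. By mean log2 value, however, the fibroblast markers overlapped, with mutant 2 at 12.05 and control 1 at 12.06. The perineurial and Schwann cell markers were separate by that measure too. The part of these cell types in the changes of the WNT genes was not tested. The sums of endothelial, pericyte, macrophage, adipocyte, T cell and muscle markers overlapped between the groups, and of the genes on these 6 lists Cldn5 passed, at −0.42. No marker was at 0, and the lowest value of any marker was 5.70.

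Further genes of the pathway were taken from a list of 57, all of them measured. Of these, 8 rose (14%), 4 fell (7.02%) and 45 did not pass, with a median difference of 0.05. Of all genes, 5.74% were higher and 3.89% lower. The 21 genes of the cytoplasmic and nuclear parts of the pathway contributed 0 calls in limma, while 9.62% of all genes passed. Whether 0 of 21 lies below that share was not tested. Of the 21, 6 had an unadjusted p under 0.05 in limma, and 4 passed in at least 1 of the 19 alternative analyses. The matching shares of all genes were not computed, so neither count can be read as a trait of these genes. Without mutant 3 the rises numbered 5, and the falls numbered 1 without mutant 1 or mutant 3 and 2 without mutant 2, control 2 or control 3.

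Lgr5, a receptor for R-spondins that sustain WNT signalling and a marker of stem cells in the gut, showed the largest rise. It had 11.64, 11.01 and 11.47 in the mutant nerves, against 8.62, 8.74 and 8.90 in the control nerves (difference 2.62, SE 0.17, 6.16-fold, adjusted p = 0.000399). The groups were over 2 log2 units apart. Its relatives Lgr4 (0.67, adjusted p = 0.0695) and Lgr6 (−0.25, adjusted p = 0.275) did not pass, nor did Rspo1 to Rspo4, at −0.02, −0.10, 0.29 and 0.12. The ubiquitin ligases Znrf3 and Rnf43, which remove Frizzleds from the surface, stood at −0.27 and −0.26 without passing.

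Receptors of signalling outside the canonical pathway rose as well. Ror1 had 10.80, 10.47 and 10.81 in the mutant nerves, against 9.44, 9.44 and 9.68 in the control nerves (difference 1.17, SE 0.13, 2.25-fold, adjusted p = 0.00255). No values overlapped. The related receptor Ror2, which binds WNT5A, rose by 0.76 (adjusted p = 0.00935) and the pseudokinase receptor Ptk7 by 0.78 (adjusted p = 0.00395). Ror2 did not pass without mutant 3 (adjusted p = 0.0515). Ryk stood at −0.35 (adjusted p = 0.101). Wls, the carrier that brings WNT ligands to the cell surface, rose by 0.77 (10.39 ± 0.12 in the mutant nerves, 9.61 ± 0.15 in the control nerves, SD, n = 3 each, adjusted p = 0.00656). Porcn, which attaches the lipid to the ligands, differed by −0.05 (adjusted p = 0.775).

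Frzb, the secreted antagonist also known as sFRP3, fell while Sfrp1, Sfrp4 and Sfrp5 rose. It had 7.07, 8.42 and 7.18 in the mutant nerves, against 10.86, 11.06 and 11.61 in the control nerves. Mutant 2 was the highest mutant nerve and lay over 2 log2 units below the lowest control nerve. The difference was −3.62 (SE 0.38, interval −4.52 to −2.72, 12.3-fold lower, adjusted p = 0.0022), the largest among the members and the 57 other genes. The values of 7.07 and 7.18 in mutants 1 and 3 lay below the array medians. Background there may compress a fold change, which was not tested. The promoter of Frzb, shown as that of the antagonist that fell, lies at chr2:80447347-80447646 on the minus strand.
Frzb: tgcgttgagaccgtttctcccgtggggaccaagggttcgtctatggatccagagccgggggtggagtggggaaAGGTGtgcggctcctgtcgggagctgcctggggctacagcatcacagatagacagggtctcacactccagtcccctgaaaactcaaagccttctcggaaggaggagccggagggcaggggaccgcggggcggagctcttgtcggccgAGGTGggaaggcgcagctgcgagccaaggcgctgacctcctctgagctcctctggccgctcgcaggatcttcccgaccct

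The other antagonists did not pass. Sostdc1, which also binds BMPs, stood at 0.69 (adjusted p = 0.113), and Sost, Kremen1, Kremen2, Apcdd1 and Tmem88 stood between −0.20 and 0.11. Genes that beta-catenin is known to activate in other tissues differed among themselves. The cell cycle gene Ccnd1 had 12.78, 12.16 and 12.74 in the mutant nerves, against 11.44, 11.29 and 11.36 in the control nerves (difference 1.20, SE 0.17, adjusted p = 0.0069). The matricellular gene Ccn4 had 8.49, 7.84 and 8.53 in the mutant nerves, against 9.12, 9.27 and 9.58 in the control nerves (difference −1.04, SE 0.21, adjusted p = 0.0266). Thus all mutant nerves were higher for Ccnd1 and lower for Ccn4. The Ccn4 call was lost when mutant 1 was left out (adjusted p = 0.0628), as for mutant 3 (0.0557), control 2 (0.0693) and control 3 (0.071). Myc stood at 1.07 and did not pass (adjusted p = 0.062). It passed in 4 of the 19 alternative analyses, which were the fit blocked by replicate number (adjusted p = 0.0172), the fit with array weights (0.0229), that with the adipocyte score (0.0406) and that without the lowest 50% of genes (0.0453). Sp5 and Ccn5 stood at 0.02 and −0.07.

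**Figure D4:**
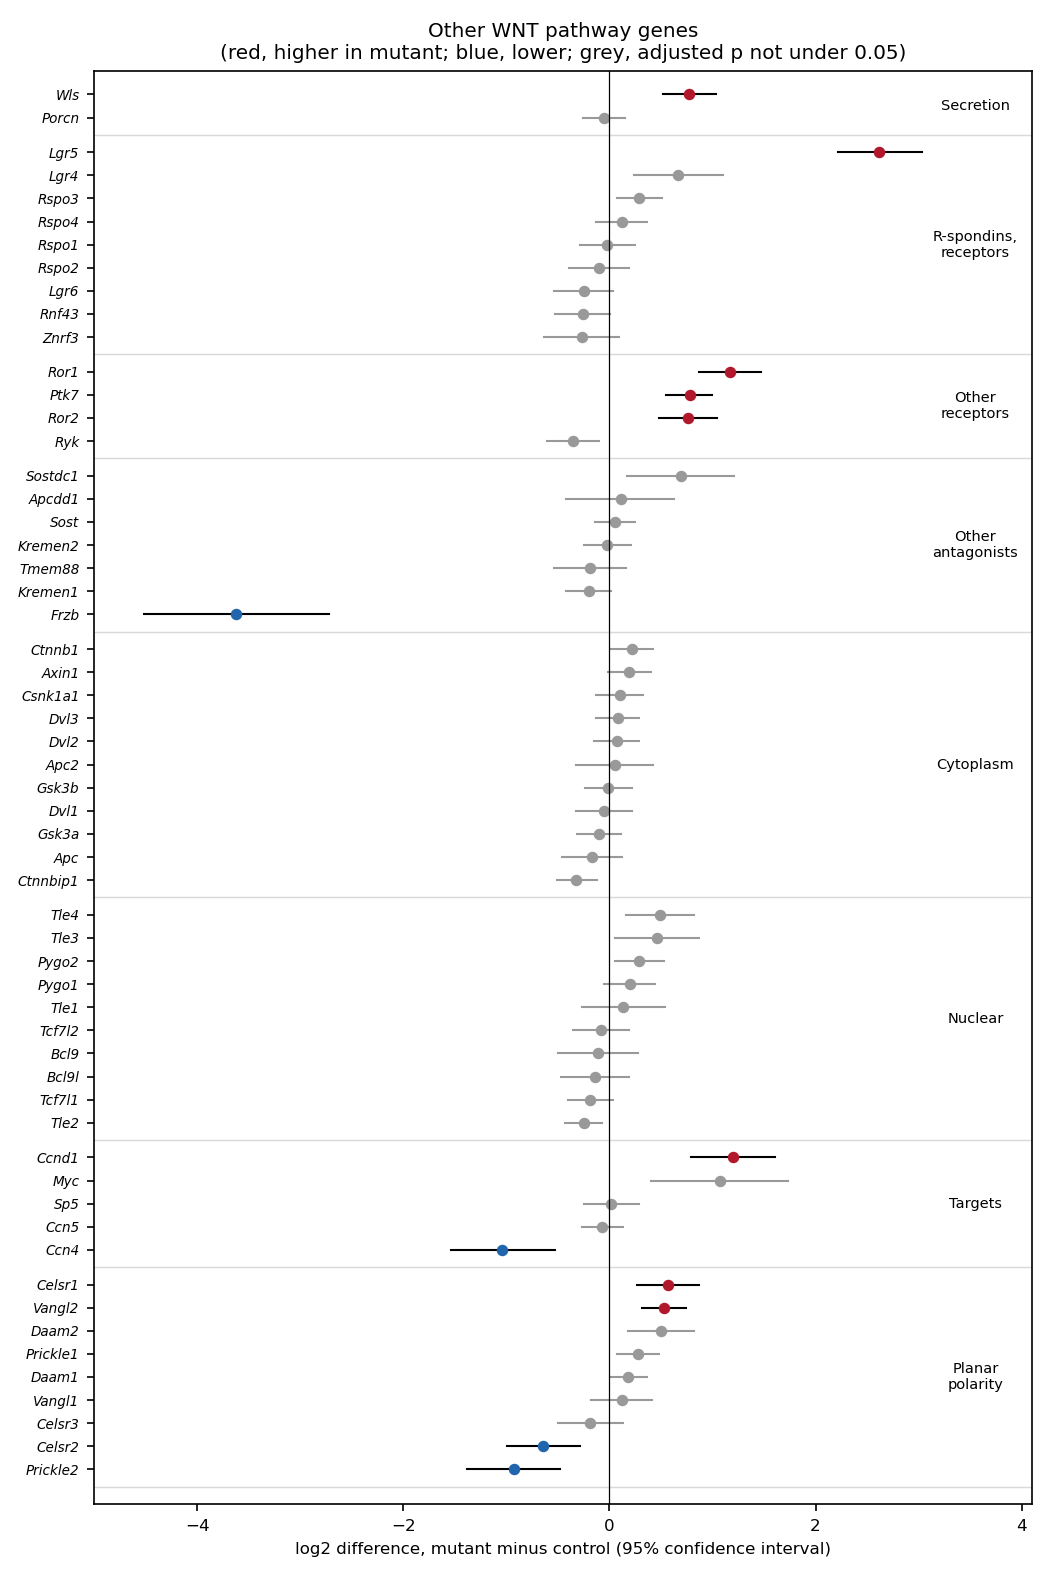
Difference of the mutant and control means on the log2 scale (x axis, points) with its 95% confidence interval (lines) for the 57 other pathway genes, grouped by role. Lgr5 at 2.62 and Frzb at −3.62 stand farthest from 0, and the cytoplasmic and nuclear genes lie between −0.32 and 0.49.

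The genes of planar cell polarity, which orient cells within a sheet, went both ways. Vangl2 (0.53, adjusted p = 0.013) and the cadherin Celsr1 (0.57, adjusted p = 0.0343) rose, and Celsr2 (−0.64, adjusted p = 0.0405) and Prickle2 fell. Prickle2 had 9.11, 8.84 and 9.12 in the mutant nerves, against 9.70, 9.80 and 10.37 in the control nerves (difference −0.93, SE 0.19, adjusted p = 0.0254). All mutant nerves were lower, and control 3 was the highest nerve. Leaving out mutant 1 (adjusted p = 0.0754) or mutant 3 (0.0705) ended the Vangl2 call, and leaving out any mutant nerve that of Prickle2 (0.0831, 0.0683 and 0.0819 for mutants 1 to 3). Celsr1 was lost when mutant 1 (0.133), mutant 3 (0.135), control 1 (0.0846) or control 2 (0.0964) was left out, and Celsr2 in all 6 fits without 1 nerve (adjusted p 0.059 to 0.136). Vangl1, Prickle1, Celsr3, Daam1 and Daam2 did not pass, at −0.19 to 0.50.

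Of the 11 cytoplasmic genes, beta-catenin itself (Ctnnb1) had 12.51, 12.44 and 12.56 in the mutant nerves, against 12.20, 12.27 and 12.38 in the control nerves. The difference of 0.22 (adjusted p = 0.188) did not pass although the values did not overlap. The 3 Dishevelled genes stood at −0.05 to 0.08, Gsk3b at −0.01, Apc at −0.17 and Axin1 at 0.19. Ctnnbip1, an inhibitor of beta-catenin, had the smallest p (−0.32, adjusted p = 0.0574). It passed, as lower in the mutant nerves, in 6 of the 19 alternative analyses (adjusted p 0.0216 to 0.0462). The TCF genes Tcf7l1 and Tcf7l2 stood at −0.19 and −0.08, and the corepressors Tle1 to Tle4 at 0.13, −0.25, 0.46 and 0.49, without passing. Tle3, Tle4 and Pygo2 passed with array weights, Tle4 also without mutant 2 and control 2.

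Promoters of 30 of the 45 genes, including 7 of the 12 that passed, were found in the RefSeq table of GRCm38.p6. CACCT or AGGTG occurred in 19 of the 30 (63.3%), in 4 of the 7 that passed and in 55.2% of the promoters of all 27025 genes of the table. The Wnt2b, Sfrp5 and Nkd1 windows held 2 such words each and the Fzd1 window 1, so the word was present in genes that rose and in the gene that fell, while the windows of Axin2, Wnt6 and Nkd2 held 0. The Frzb window held 2. The TCF word NNCAAAG, with A or T at each N and searched on both strands, occurred in 6 of the 30 (20%), in 0 of the 7 that passed and in 18.9% of all genes. No match overlapped a match of the other kind in the promoters shown, and a match describes letters in the window, not a bound site.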

How the data were processed

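Per the labels' protocols, RNA was isolated with Trizol, prepared with an Ambion WT kit and read on biotin-labelled, 1-colour Affymetrix arrays. The authors deposited log2 values, 1 per probe set and mouse; the base was read from the values (3.55 to 14.52). Limma appears in the submitters' processing notes. Their background correction, normalization and genome build are not stated in the sources used here. Of 21225 probe sets, 20239 have 1 gene symbol in the platform annotation, 0 several and 986 none. Array medians were 8.02 to 8.11. Arrays have no read depth, so their number limits the precision.

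Groups came from the sample titles. The named genes were fitted with limma 3.58.1 (under R 4.3.3, by lmFit and eBayes with 6.89 degrees of freedom, two-sided, without covariates), with Benjamini-Hochberg adjustment over all of them, and the fit was tested on simulated data. Labels call the samples biological replicates. Deviations from the group means correlated between same-numbered nerves at 0.36, 0.574 and 0.295, so the numbers were treated as pairs in an alternative fit blocked by replicate number, although mutant 1 and control 3 also correlated, at 0.303. The highest correlation between 2 arrays was 0.995, and no array was counted as a repeat.

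Values in every nerve are given for genes of the group that passed or differed by at least 0.58, and for the 6 largest changes among the further pathway genes that passed; nerve values of other genes were picked with the values in view. The members, the marker lists, the pathway list and the tests were chosen with earlier results of these data known. Scores are mean log2 values of a marker list, and sums add linear values. The 19 alternatives filtered low values, changed normalization, prior or weights, added a block or covariate, or left out nerves. Motifs were searched in Python 3.11.15, and figures drawn with matplotlib 3.10.9.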

Additional observations from a re-analysis of the deposited data

How the results depend on the processing

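The 19 alternatives reversed none of the differences of Zeb2, Fzd3, the 12 WNT genes that passed and the 12 other pathway genes that passed. The count of WNT genes that rose was 11, and 8 to 14 in the alternatives. The count that fell was 1, and it was 2 with repeated quantile normalization, array weights or the adipocyte score as a covariate, where Fzd3 was added, 0 without the 2 muscle-rich nerves, and 0 to 2 without 1 nerve. Of the other pathway genes, 16 rose with array weights and 5 to 11 without 1 nerve, against 8. The fallers among them numbered 2 with sex as a covariate, 1 without the 2 muscle-rich nerves, 1 to 4 without 1 nerve and 4 to 6 in the other 11 alternatives, against 4. Genes that did not pass but did in at least 1 alternative numbered 5 of 33 WNT genes and 10 of 45 other pathway genes. The share of all genes that gained a call in this way was not computed. Array weights called 3655 of all genes, against 1948. Zeb2 ran from −0.97 to −0.74 without 1 nerve. The median of the WNT genes was 0.47 without the lowest 50% of genes, which leaves 24 of the 45, and 0.03 with median centring, which moved the median of all genes to −0.071. With median centring Sfrp4 (adjusted p = 0.0506), Sfrp5 (0.0796) and Nkd2 (0.0522) did not pass in limma, nor did the other pathway gene Celsr1 (0.0587). With sex, read from Xist and Y-linked genes, as a covariate Sfrp5 (0.0988) and Nkd2 (0.0734) did not pass. That fit also ended the calls of the other pathway genes Ccn4 (0.0617), Celsr1 (0.0789) and Celsr2 (0.0532). The replicate block gave 12 WNT genes that rose and 1 that fell, and 9 and 4 of the other pathway genes; beyond Wif1 and Myc it changed no call of these genes. The causes were not tested. Genes near background on the array, and groups of 3, limit what these data can detect.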
